A study of Homo sapiens with 3 samples.

Results

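The genes described here are 10 human tRNA modification genes, listed by name with no threshold on a measured value, although earlier results of these data were known when the list was made. They are the dihydrouridine synthases DUS1L, DUS2, DUS3L and DUS4L, and the tRNA methyltransferase genes TRMT1, TRMT5, TRMT6, TRMT61A, TRMT10A and TRMT10C, among 20033 protein-coding genes annotated on chromosomes 1 to 22, X and Y. To learn where the zinc finger protein ZBTB11 sits on chromatin in lung cancer cells, the study sequenced DNA co-immunoprecipitated from formaldehyde-fixed chromatin (ChIP-seq). The cells were NCI-H1299, a lung adenocarcinoma line of wild-type (WT) label, untreated and grown with serum. From these cells came 1 library immunoprecipitated with an antibody against ZBTB11, 1 library with normal IgG as negative control, and 1 Input library that was not analysed here. With a single library for each antibody, no difference below has a replicate check and no test between antibodies was possible. The labelled cell type was not checked against marker genes, since peak lists hold no expression values.

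Transfer RNAs are heavily modified after transcription, which keeps their fold stable and their decoding accurate. Dihydrouridine synthases reduce uridines to dihydrouridine, mostly in the D-loop, which makes the loop more flexible. The tRNA methyltransferases add methyl groups to bases at fixed positions of the tRNA body or next to the anticodon, and some of them act in mitochondria. DUS1L was among the promoters that the study chose from its own ChIP-seq for ChIP-qPCR, so the height of its peak is a description and not independent evidence.

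ZBTB11 peaks lay near the start of every one of these genes, and the strongest peak of most of them had a small p-value. A peak was taken as near when its interval lay within 3 kb of any transcription start site (TSS) in GENCODE release 44, and 10 of 10 genes had at least 1 such peak. This count says little alone, because 87.7% of all protein-coding genes passed the same rule. At a p-value of 1e-05 or less, 9 of 10 genes had a peak, against 46.9% of protein-coding genes, and DUS4L was the exception. Of the 10 genes, 7 had a strongest peak that ranked within the first 4006 of the protein-coding genes, which is the upper 20%. TRMT1 was among these 7 only through a peak that spanned none of its annotated starts. The peak over its own start had a −log10 p of 10.2. The median fold enrichment of the strongest peaks was 10.3, against 3.85 over all protein-coding genes with a peak, and the median −log10 p was 33.6 against 5.73.

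The sequences below show the short consensus that the study gives for ZBTB11, CCGGAAG or CAGGAAG, where it occurs in the strongest peak of each gene (for TRMT10C, the match nearer the start). The study derived this consensus from high ZBTB11 peaks of these same data, so its presence at a peak is not independent of them. Each is 29 bases of hg38, written 5′ to 3′ on the strand of the named gene, with the match in capitals (CTTCCGG is CCGGAAG read on the other strand). DUS1L comes from chr17:82065792-82065820 (−), DUS3L from chr19:5791171-5791199 (−), TRMT5 from chr14:60981161-60981189 (−), TRMT6 from chr20:5950560-5950588 (−), TRMT61A from chr14:103529177-103529205 (+), TRMT10A from chr4:99563799-99563827 (−) and TRMT10C from chr3:101561829-101561857 (+).
DUS1L: ggaccgggcacCTTCCGGtggcggcgcgg
DUS3L: acacgcgtgacCCGGAAGgtcttcccgcc
TRMT5: tgagcccggccCTTCCGGcattccgtact
TRMT6: ccgagaggCTTCCGGAAGcggtcttgagg
TRMT61A: cgggcgcggagCCGGAAGtgttgtggccg
TRMT10A: agcaacaagggCTTCCGGgggagagggga
TRMT10C: agagggcggaaCTTCCGGctgagccccag

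The stretches under the summits of DUS1L and DUS2 are shown as examples from the 7 genes whose strongest peak holds no consensus there. They are 95 bases at chr17:82065858-82065952 (−) and 101 bases at chr16:68023034-68023134 (+) of hg38. No letter is in capitals since neither contains a match.
DUS1L: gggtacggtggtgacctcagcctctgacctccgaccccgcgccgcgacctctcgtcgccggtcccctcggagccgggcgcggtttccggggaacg
DUS2: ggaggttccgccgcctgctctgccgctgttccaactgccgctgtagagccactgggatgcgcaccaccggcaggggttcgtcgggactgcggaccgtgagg

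Among the dihydrouridine synthases, DUS1L stood apart. DUS1L (ENSG00000169718.18), which modifies the D-loop, had a single peak near its TSSs at chr17:82065521-82066313. Its summit held 402 fragments over a local background of 17.4, a fold enrichment of 21.95 with a −log10 p of 384.6. The exact Poisson 95% interval of that pileup was 363.7 to 443.3. Such intervals cover counting error only, and the fragment numbers were solved from the deposited fold and p-value of each peak. The summit lay 101 bp upstream of the start of the canonical transcript and 18 bp upstream of the nearest annotated start, and the peak spanned 6 transcript starts of the gene. In the ZBTB11 list this peak ranked 241, and DUS1L ranked 317 among protein-coding genes by the p-value of the strongest peak. Next to it in that order, in this 1 library, were SELENOH on chromosome 11 with 414 fragments (−log10 p of 384.7, a peak shared with the overlapping ENSG00000254732) and MRPL39 on chromosome 21 with 403 fragments (−log10 p of 384.0).

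The ChIP-qPCR primers that the study lists for DUS1L were placed on the genome to see which part of the peak they sample. The forward primer is GGCGGGTAGGAAAGTCGATC and the reverse primer is GCCTCTGAAAGCCACTCACT. They matched hg38 exactly once as a pair, at chr17:82066184-82066301, an amplicon of 118 bp. It lay wholly inside the ZBTB11 peak, but 12 bp from its upstream edge and 279 bp from the summit. The middle of the amplicon was 438 bp upstream of the canonical start.

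DUS2 and DUS3L had peaks of similar height, far below that of DUS1L. DUS2 (ENSG00000167264.18), another D-loop enzyme, had its strongest peak at chr16:68022760-68023483 with 54 fragments (40.6 to 70.5) over a background of 3.43, a fold of 12.4 and a −log10 p of 45.1. The DUS1L summit held 7.44 times as many fragments as the DUS2 summit (exact 95% interval 5.59 to 10.1). DUS2 has 15 annotated starts spread over a long region, and 7 further peaks near them held only 3 to 5 fragments, all with q-values above 0.05. DUS3L (ENSG00000141994.16), which acts on the variable loop, had 1 peak at chr19:5790686-5791417 with 50 fragments (37.1 to 65.9) over 3.92, a fold of 10.4 and a −log10 p of 37.6. Its summit lay 8 bp downstream of the nearest start, in an intron of the canonical transcript.

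DUS4L, the remaining D-loop enzyme, was the weakest of the 10 genes. DUS4L (ENSG00000105865.11) had a peak of 7 fragments (2.81 to 14.4) over a background of 1.75 at chr7:107563265-107564242, in the 5′ UTR, 15 bp from the nearest start. Fold enrichment there was 2.90, and the −log10 p of 3.32 and −log10 q of 0.750 left it outside both thresholds. A second DUS4L peak, in an intron, held 6 fragments with a −log10 p of 3.29. The DUS2 summit held 7.71 times the fragments of the DUS4L summit (3.50 to 20.1), and the DUS3L summit held 7.14 times (3.22 to 18.7). The dihydrouridine synthases thus spanned ranks from 317 to 11954 among protein-coding genes.

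**Figure D1:**
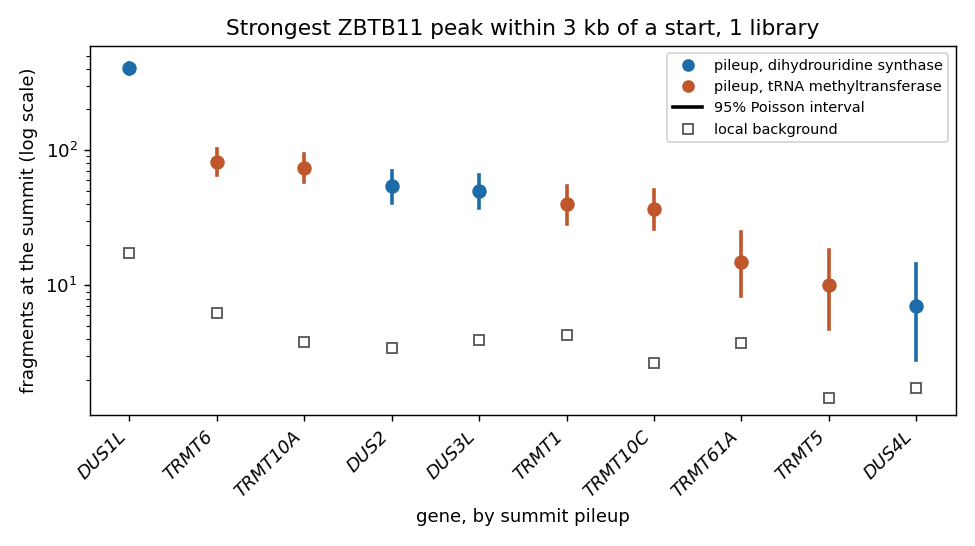
Fragments stacked at the summit of the strongest ZBTB11 peak near a start of each gene (filled circles, vertical lines are exact Poisson 95% intervals, log scale) and the local background (open squares), in 1 library. DUS1L at 402 stands above the other genes, which run from 82 (TRMT6) to 7 (DUS4L).

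TRMT6 and TRMT10A carried the highest peaks of the methyltransferase genes. TRMT6 (ENSG00000089195.15) is the non-catalytic subunit of the enzyme that methylates an adenosine in the T-loop, and TRMT61A (ENSG00000166166.13) is its catalytic subunit. At TRMT6, 82 fragments (65.2 to 101.8) stood over a background of 6.22 at chr20:5950128-5951140, a fold of 11.5 and a −log10 p of 61.4, with the summit in the 5′ UTR, 7 bp from a start. At TRMT61A, 15 fragments (8.40 to 24.7) stood over 3.74 at chr14:103528992-103529341, a fold of 3.38 and a −log10 p of 5.67, with the summit 33 bp upstream of the start. The partner subunits therefore differed 5.47-fold in summit fragments (3.13 to 10.2). TRMT61A passed the p-value threshold only narrowly, and a second peak 820 bp upstream, with 9 fragments, did not.

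TRMT10A and TRMT10C are related methyltransferases that act on the same position of the tRNA body, the first on cytosolic and the second on mitochondrial tRNAs. TRMT10A (ENSG00000145331.14) had 74 fragments (58.1 to 92.9) over 3.84 at chr4:99563476-99564176, a fold of 15.5 and a −log10 p of 67.2. Its summit was 235 bp inside the canonical transcript, in an intron, but 74 bp upstream of another annotated start. TRMT10C (ENSG00000174173.7) had 37 fragments (26.1 to 51.0) over 2.68 at chr3:101561614-101562227, a fold of 10.3 and a −log10 p of 29.6, with the summit in the 5′ UTR, 85 bp downstream of the start. The TRMT10A summit held 2.0 times the fragments of the TRMT10C summit (1.33 to 3.05).

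TRMT10C also serves as a subunit of mitochondrial RNase P, with HSD17B10 and the nuclease PRORP. These partners, named after their values were seen, differed widely. PRORP had 222 fragments at the summit of its strongest peak, 6.0 times those of TRMT10C (4.22 to 8.75). HSD17B10 had 8 fragments with a −log10 p of 4.90, short of the threshold, and TRMT10C had 4.62 times as many (2.12 to 11.5).

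TRMT1 and TRMT5 had weaker or displaced peaks. TRMT1 (ENSG00000104907.13), which dimethylates a guanosine between the D-arm and the anticodon arm, had its strongest peak at chr19:13117836-13118328 with 40 fragments (28.6 to 54.5) over 4.28, a fold of 7.76 and a −log10 p of 25.4. That peak spanned none of the annotated TRMT1 starts, and its summit lay 544 bp from the nearest one and 1371 bp upstream of the canonical start. It did span a start of NACC1, a BTB-domain protein gene on the opposite strand, 153 bp from the summit. Over the TRMT1 canonical start lay a second peak at chr19:13116204-13117415 with 23 fragments (14.6 to 34.5), a fold of 4.44 and a −log10 p of 10.2. The first peak had 1.74 times the fragments of the second (1.02 to 3.04). That interval makes no allowance for the first peak having been chosen as the strongest, so it does not show that they differ. TRMT5 (ENSG00000126814.7), which methylates the guanosine that follows the anticodon, had 10 fragments (4.79 to 18.4) over 1.47 at chr14:60980888-60981668, a fold of 4.45 and a −log10 p of 6.34, 25 bp from a start.

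The 10 genes were then ordered by summit fragments and each compared with the next. Because the same fragments set the order, no ratio could fall below 1, and the intervals make no allowance for the sorting. Of 9 neighbouring pairs in this order, 2 had a ratio whose interval lay above 1. These were DUS1L over TRMT6 (4.90, 3.86 to 6.30) and TRMT10C over TRMT61A (2.47, 1.32 to 4.84). TRMT6, TRMT10A, DUS2, DUS3L, TRMT1 and TRMT10C, with 82 to 37 fragments, each had an interval that included 1 against the next gene among them, as did TRMT61A, TRMT5 and DUS4L with 15, 10 and 7. Genes farther apart in the order could still differ, as TRMT10A and TRMT10C did. The dihydrouridine synthases and the methyltransferases were mixed in this order.

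**Figure D2:**
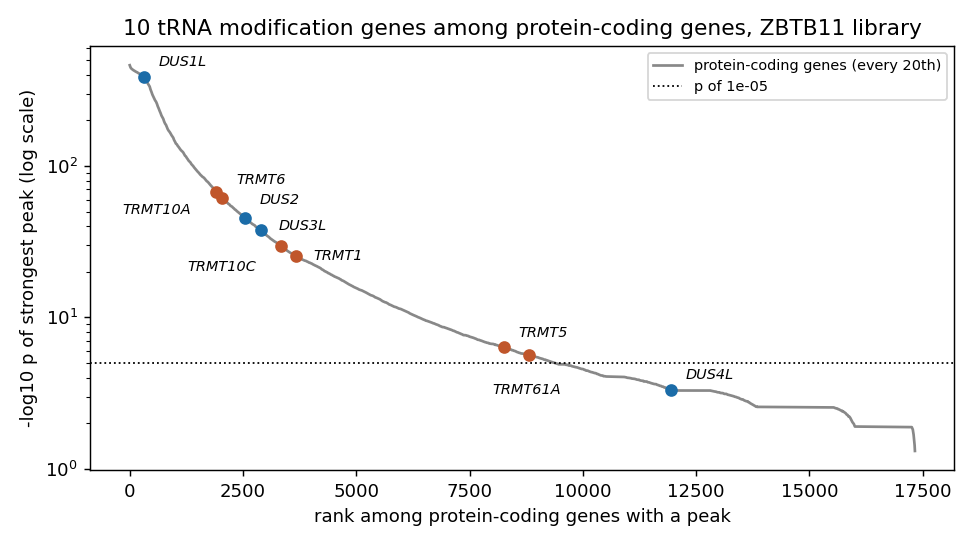
The −log10 p of the strongest ZBTB11 peak near a start (log scale) against its rank among protein-coding genes with a peak (grey line), with the dihydrouridine synthases in blue and the methyltransferases in orange. DUS1L sits at rank 317, 6 genes lie between ranks 1906 and 3662, and DUS4L falls below the dotted line at a p-value of 1e-05.

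Most summits lay close to a start. In 8 of the 10 genes the summit was within 100 bp of an annotated start of the gene, the exceptions being DUS2 (169 bp upstream) and TRMT1. The strongest peak spanned the canonical start in 9 genes. For these 2 counts no share over all protein-coding genes was computed, so they are not shown to be particular to these genes. Peaks were also chosen for lying near any of 2 (TRMT61A) to 18 (TRMT1) annotated starts, which favours short distances. GC content in the 201 bp around the summit ran from 61.2% (TRMT10C) to 76.1% (TRMT61A), on either side of the median of 67.7% over strongest peaks of protein-coding genes at a p-value of 1e-05 or less. Of the 21 peaks near a start of these genes, 10 passed that p-value, namely 9 of the strongest and the TRMT1 peak over its own start.

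Several of these peaks were shared with a gene on the other strand. The strongest peak spanned a start of an opposite-strand protein-coding gene at 6 of 10 genes. Among the 9 genes whose strongest peak had a p-value of 1e-05 or less it was 5, against 22.6% of such peaks over protein-coding genes. Apart from TRMT1, these were DUS2 with DDX28, whose canonical starts are 52 bp apart, DUS4L with COG5 (51 bp), TRMT5 with SLC38A6 (166 bp), TRMT6 with MCM8 (119 bp) and TRMT10A with MTTP. TRMT6 also faces ENSG00000286235. The DUS4L peak also spans a start of the same-strand protein-coding gene DUS4L-BCAP29, whose canonical start is that of DUS4L. DDX28 is a mitochondrial RNA helicase, COG5 a Golgi complex subunit, and MCM8 a helicase of DNA repair. The MTTP start under the TRMT10A peak is an alternative one, since the canonical starts of the pair are 10785 bp apart. To which gene of such a pair a peak belongs cannot be told from its position. DUS1L, DUS3L, TRMT61A and TRMT10C had no start of an opposite-strand protein-coding gene under the peak, and non-coding genes were not searched.

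Next, the consensus was searched on both strands. It lay wholly within 50 bp of the strongest summit in 3 of 10 genes, TRMT5, TRMT61A and TRMT10A, against 15.8% of all protein-coding genes with a peak. At a p-value of 1e-05 or less it was 3 of 9 genes, against 25.2%, which is close to the background. None of the 20 equal windows 500 bp to either side of the summits of the 10 genes held it. The share was 4.11% of such windows over all protein-coding genes with a peak, so low that an absence in 20 windows says little. The match was 9 bp from the TRMT10A summit, 28 bp from that of TRMT61A and 30 bp from that of TRMT5.

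Presence of the consensus at the summit did not follow the height of the peak among these genes. TRMT10A, TRMT61A and TRMT5, with 74, 15 and 10 fragments, held it, whereas DUS1L with 402 fragments and DUS4L with 7 did not. Among protein-coding genes at ranks 1 to 1000, where DUS1L falls, 44.4% had the consensus at the summit, and among those ranked 6001 or lower, where TRMT61A, TRMT5 and DUS4L fall, 7.39% had it.

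Across the whole interval of the strongest peak, the consensus occurred in 7 of 10 genes. All 7 are among the 9 genes with a p-value of 1e-05 or less, and the background share at that p-value was 63.0%. DUS2, DUS4L and TRMT1 had none. All 9 matches were CCGGAAG, with 1 each in DUS1L, DUS3L, TRMT5, TRMT61A and TRMT10A, and 2 each in TRMT6 and TRMT10C. CCGGAAG was also the commoner variant in general. Within 50 bp of the summit it occurred in 18.5% of strongest peaks of protein-coding genes at that p-value, beside 25.2% for either variant. The TRMT6 matches overlap by 4 bases on opposite strands, as the printed sequence shows. In relation to the canonical start, 8 of the 9 matches were centred upstream, a count for which no share over all protein-coding genes was computed. Their centres lay 2 bp (DUS1L, whose match spans the start), 5 bp (TRMT61A), 22 bp (DUS3L), 25 and 45 bp (TRMT10C), 41 and 44 bp (TRMT6) and 96 bp (TRMT5) from it. The TRMT10A match lay 226 bp downstream. A match wholly within 100 bp of the canonical start was found in 6 of 10 genes, against 18.9% of all protein-coding genes, with or without a peak. This window was chosen after these positions were seen. RefSeq promoters of 300 bases (GRCh38.p14) held the consensus in 6 of 11 entries for the 10 genes (TRMT10A has 2), and in 21.8% of all 35116 entries. Neither of these 2 shares is limited to genes with a peak at a p-value of 1e-05 or less, which 9 of the 10 genes have. They are therefore not matched backgrounds. A match is a run of letters and does not show that ZBTB11 touches it.

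**Figure D3:**
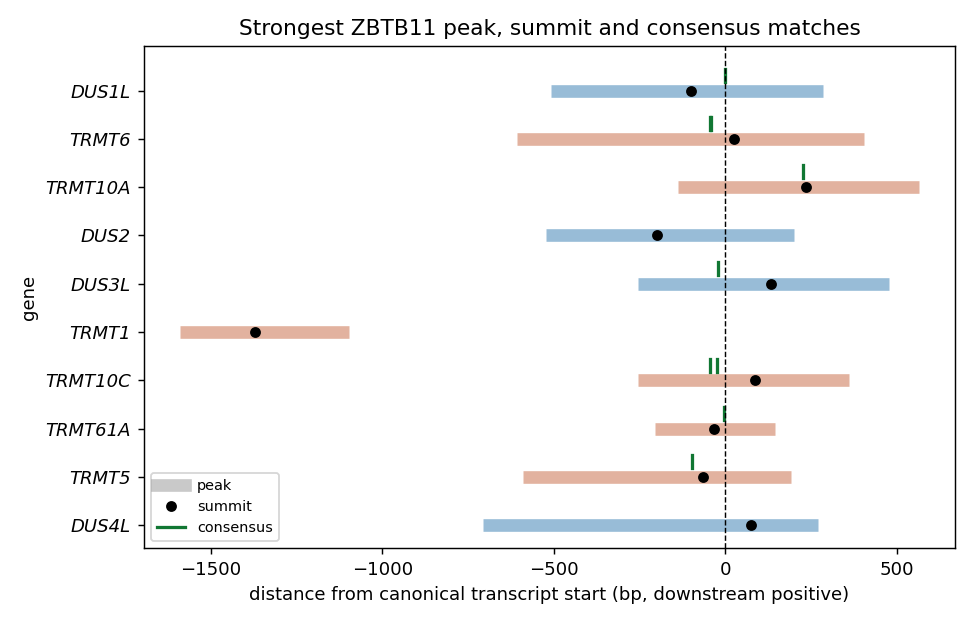
The strongest ZBTB11 peak of each gene (bars), its summit (black circles) and consensus matches inside the peak (green ticks), by distance from the canonical transcript start in bp. The matches of 6 genes crowd at or just upstream of the start, the TRMT10A match sits 9 bp from its summit, and the TRMT1 peak lies wholly upstream.

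The IgG list could not serve as control for these genes. IgG peaks were listed on only 4 of the main chromosomes (1, 10, 21 and Y), and 0 of the 10 genes lie there. To see how both antibodies compare at genes of the same pathway, 78 other tRNA modification genes were examined, of which 10 lie on chromosomes 1, 10 and 21. At 6 of these 10 the ZBTB11 peak had a p-value of 1e-05 or less. At 9 of these 10 an IgG peak lay near a start, against 67.3% of the 3074 protein-coding genes on the IgG chromosomes, and 0 of the IgG peaks had a p-value of 1e-05 or less. How many of the 3074 genes had an IgG peak at that p-value was not computed. The 0 is therefore not shown to be particular to tRNA modification genes.

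The values of the strongest peak near a start with each antibody are given next, without a test. The paired peaks need not be at the same site, and the sequencing depth of the libraries is unknown from the peak lists. An IgG peak overlapped the strongest ZBTB11 peak at 7 of the 10 genes, and at NSUN6 and TRUB1 the listed IgG peak did not. No share of such overlaps over all protein-coding genes was computed. TRDMT1, a cytosine methyltransferase of tRNA, had 381 fragments and a −log10 p of 367.3 with ZBTB11, and 7 fragments and 3.11 with IgG. WDR4, a subunit of the guanosine methyltransferase complex with METTL1, had 143 fragments against 5. YRDC, which makes the precursor of a modified adenosine next to the anticodon, had 149 against 8, TRMT13 had 115 against 8, and NSUN6 had 95 against 8. TRMT1L had 32 fragments with ZBTB11 and no IgG peak listed near a start. The other four genes had fewer ZBTB11 fragments, with 9 ZBTB11 and 5 IgG fragments at TRUB1, 8 and 6 at TARBP1, 7 and 7 at TYW3, and 6 and 5 at TRIT1. TRMT5 and DUS4L, on chromosomes with no IgG peak listed, held 10 and 7 ZBTB11 fragments.

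**Figure D4:**
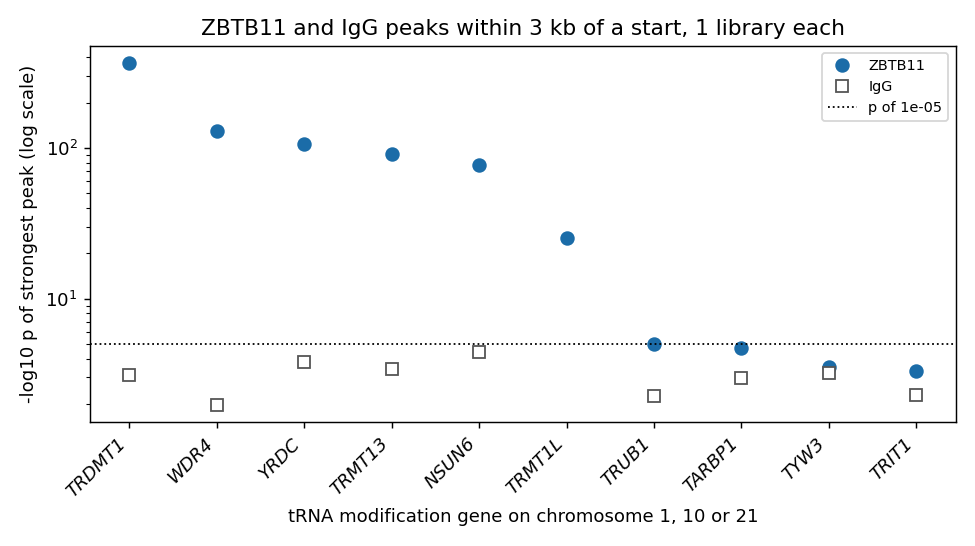
The −log10 p (log scale) of the strongest ZBTB11 peak (filled circles) and IgG peak (open squares) near a start of 10 tRNA modification genes on chromosomes 1, 10 and 21, 1 library each, where the peaks of a gene need not overlap. The 6 genes on the left exceed the dotted line at a p-value of 1e-05 with ZBTB11, no IgG peak does, and TYW3 has nearly equal values.

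Over all 78 other tRNA modification genes, 78 had a ZBTB11 peak near a start and 58 (74.4%) had one at a p-value of 1e-05 or less, beside 46.9% of protein-coding genes. Their median fold enrichment was 8.48 and their median −log10 p 24.3. The smallest p-values were at ADAT2, a subunit of the tRNA adenosine deaminase (487 fragments, −log10 p of 429.4), CDK5RAP1, which modifies an adenosine next to the anticodon (491 fragments, 413.8), and the pseudouridine synthase gene TRUB2 (466 fragments, 413.3). DUS1L, at 384.6, was lower than these. The consensus lay at the summit in 18 of the 58 strong peaks (31.0%), beside 25.2% over protein-coding genes at the same p-value.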

How the data were processed

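Members and gene lists were chosen with earlier results of these data known. Per the methods, the authors mapped reads to hg38 (BWA) and then ran MACS on every library by itself, at a p-value below 0.05. The peak lists have the layout of later MACS releases than the one named there. The deposited fold enrichment is a ratio of the summit to the local background, and the deposited p-value and q-value are given as −log10. The deposited score equals 10 times −log10 p, truncated, and was not used.

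Only the main chromosomes entered (346891 ZBTB11 and 26712 IgG peaks), leaving out 1501 and 1165 peaks elsewhere. Summit fragments were solved as whole numbers from fold (with 1 added to pileup and background) and a Poisson p-value, within 3.4e-05 of the −log10 p for the 10 genes' peaks. As the background comes from the same library, a high peak raises its own background and lowers its fold. The strongest peak had the smallest p-value. Ratios of fragments carry exact (Clopper-Pearson) 95% intervals. The search, distance and solving steps were tested on simulated data. Named besides the 10 genes were genes sharing their peaks, neighbours of DUS1L in rank, and, of the other tRNA modification genes, those on chromosomes 1, 10 and 21 and the 3 smallest p-values. Python 3.11.15, pysam 0.24.0 and scipy 1.17.1 were used.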

Additional observations from a re-analysis of the deposited data

How the results depend on the processing

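No paired analysis was possible because there is a single library for each antibody. Of 44 alternatives over 15 results, 38 stayed within 1.5 times the main count or within the counting interval of the fold. This number is no measure of robustness, because some alternatives could not move. For the 6 genes with a single peak near a start, another choice of peak could only return the same fold. The tolerance was also wide, as the 58 other tRNA modification genes became 78 with every deposited peak and still counted as unmoved. The count of genes with the consensus at the strongest summit moved from 3 genes to 1 with 25 bp on each side, to 7 over the whole peak and, as an alternative chosen after seeing the data, to 6 within 100 bp of the canonical start. The 9 other tRNA modification genes with an IgG peak near a start became 0 at an IgG p-value of 1e-05 or less and 5 when at least 50% of the IgG peak had to overlap the strongest ZBTB11 peak. The fold of TRMT1 became 4.44 with the peak nearest to its canonical start. With a p-value of 1e-10 or less, 7 of the 10 genes kept a peak, without TRMT5, TRMT61A and DUS4L. Depth limits the weakest genes, whose intervals of summit fragments overlap, and no replicate shows how far any value varies between libraries.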

Other observations

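The other tRNA modification genes were also described by chemistry, with every gene counted once and no test between classes, beside 46.9% of all protein-coding genes passing the same rule. Of 10 genes for modified adenosines next to the anticodon, 7 had a ZBTB11 peak near a start that reached a p-value of 1e-05, with summits of 6 to 491 fragments and a median fold of 12.5. Of 14 genes of Elongator and other wobble uridine enzymes, 11 had one (9 to 438 fragments, median fold 10.0), and so did 7 of 10 pseudouridine synthase genes (7 to 466 fragments, median fold 4.89). All 3 adenosine deaminase genes passed, with 22 to 487 fragments. Of the other 30 methyltransferase genes and their partners, 23 passed, with 4 to 381 fragments and a median fold of 9.95. The small classes gave 2 of the 3 genes classed under wybutosine, 1 of 2 queuosine genes, 1 of 2 partners in mitochondrial RNase P and 3 of 4 other genes.

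Wybutosine synthesis, a guanosine modification, follows the methylation made by TRMT5. Of the 3 genes classed under it here, TYW1 had 467 fragments and TYW5 had 447, whereas TYW3 had 7. The class was not complete, as TRMT12 and LCMT2, with 84 and 112 fragments, were counted with the methyltransferases. The queuosine transglycosylase subunits QTRT1 and QTRT2 had 10 and 13. These genes were picked after their values were seen.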
